A study of Mus musculus with 48 samples.

Results

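The livers described here came from p110α hep-/- mice that had been kept on a high-fat diet (HFD) and were killed either fed or after a fast of 24 h. All animals of this genotype and diet were taken, which gave 6 fasted and 6 fed livers of the 48 in the series, with 1 array per mouse. The p110α hep-/- mice carried floxed Pik3ca alleles and albumin-Cre, whose promoter is active in hepatocytes, so that the other cells of the liver kept p110α. Other groups served for comparison. One set was p110α hep+/+ mice on HFD (6 fasted, 6 fed), which were littermates with the floxed alleles and no Cre. Another was p110α hep-/- mice on control (CTRL) diet (6 fasted, 6 fed). All mice of these groups were males, 12 weeks old when the diets began, and ate HFD (60% of calories from fat) or CTRL diet for 12 weeks. All were killed at ZT16, which lies in the dark phase when mice normally eat.

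p110α, encoded by Pik3ca, is a catalytic subunit of class I phosphoinositide 3-kinase. In hepatocytes it passes the insulin signal from the receptor and its IRS adaptors to AKT, which keeps the transcription factor FOXO1 out of the nucleus and favours SREBP-1c, the activator of fatty acid synthesis genes. During a fast insulin falls while glucagon, glucocorticoids and fatty acids from adipose tissue rise, and the liver normally turns from lipogenesis and glycolysis to fatty acid oxidation, ketone body synthesis and gluconeogenesis, in large part through PPARα, FOXO1, CREB and the glucocorticoid receptor.

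Each gene was read as the log2 normalised signal of its brightest probe, on which a difference of 1 is a 2-fold change, and fold changes are fasted over fed throughout. A gene was called when limma's moderated test gave an adjusted p of at most 0.05 (Benjamini-Hochberg) and the fold change was above 1.5. Between 50.6% and 56.8% of probes were well above background on the 12 arrays, and the difference between fasted and fed livers did not pass an exact permutation test (2-sided p = 0.353, smallest possible p = 0.00216), and no spot was saturated. Fed replicate 3 stood apart. Its array weight was 0.35 where the other 11 lay between 0.73 and 1.35, its root mean square distance from its own group mean was 0.372 against 0.215 to 0.247, and it lay nearer to the fed p110α hep-/- livers on CTRL diet (0.334). It stayed in the fit as labelled with its low weight, and results are also given without it. Whether this mouse had eaten HFD, as its label says, was not tested. The Pik3ca probe gave no check of the deletion. Among fed livers on HFD its signal was 13.32 ± 0.15 without and 12.74 ± 0.15 with hepatocyte p110α (SD, n = 6 each). Whether the probe lies in the deleted exons was not tested.

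Fasting changed 1209 of 20486 genes in p110α hep-/- livers on HFD (5.9%). Of these 565 rose (2.76%) and 644 fell (3.14%), 158 of the rises and 133 of the falls exceeded 2-fold, and the median size of the called changes was 0.78 on the log2 scale. Among genes well above background whose fasted and fed livers did not overlap, the 12 largest rises included Mt2, Mt1, Fkbp5 and Cdkn1a, and the 12 largest falls included Elovl6, Fasn, Mid1ip1 and Acly. The lack of overlap in genes named from these rankings follows from this choice. In 548 of the 1209 genes the 6 fasted and the 6 fed livers did not overlap at all, a separation seen in 8.44% of all genes. Without fed replicate 3 the count was 1291, with 1187 of the 1209 genes among them. The arrays were washed in 2 batches that each held 3 livers of every group, and 1205 of the 1209 genes had the same direction in both. These genes were called on both batches together, so this is no independent check.

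**Figure D1:**
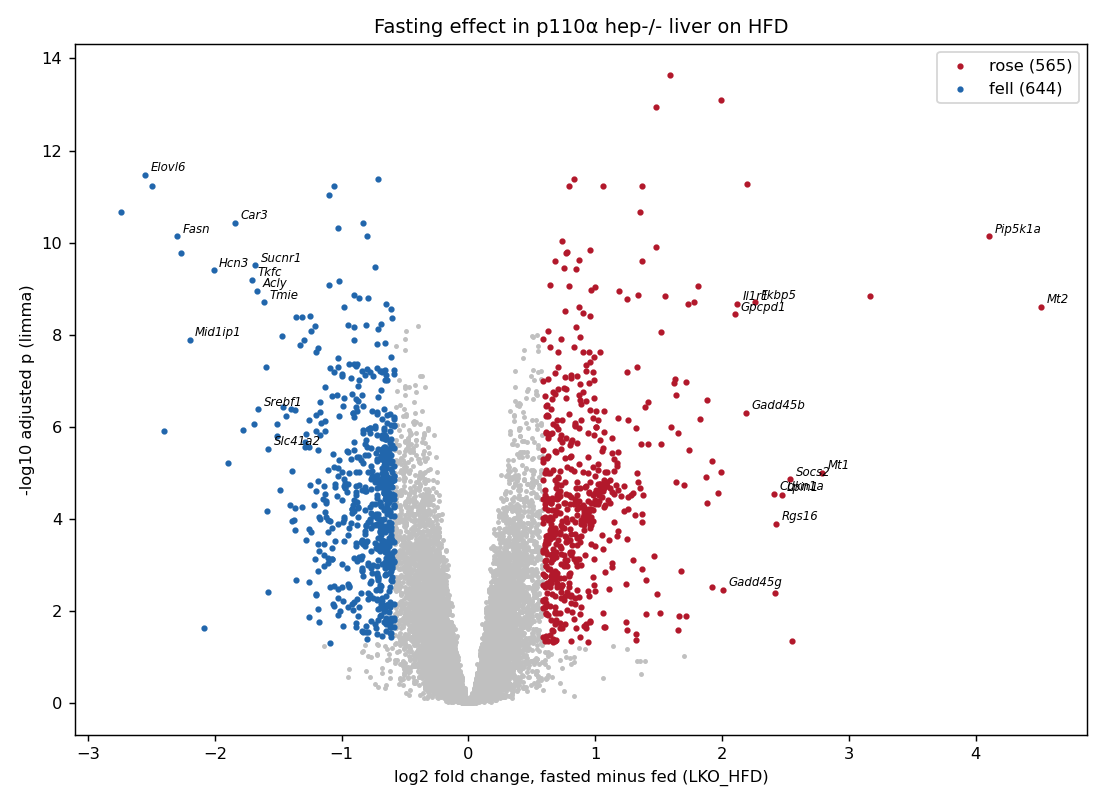
Fasting effect in p110α hep-/- livers on HFD for 20486 genes, with the log2 fold change (fasted over fed, n = 6 each) on the x axis and the negative log10 of limma's adjusted p on the y axis. Red points mark the 565 genes that rose and blue points the 644 that fell, and Mt2 (4.52) and Elovl6 (-2.55) lie at the far right and left among the labelled genes.

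Mt2 and Mt1 encode metallothioneins, small cysteine-rich proteins that bind zinc and copper and whose genes answer to metals and to glucocorticoids. Their promoters are shown because Mt2 had the largest called rise and Mt1 rose with it. Both windows run from 250 bases before to 50 bases after the annotated start on the plus strand (RefSeq, GRCm38.p6), chr8:94172368-94172667 for Mt2 and chr8:94178839-94179138 for Mt1, and capitals mark the core of the metal response element, spelled TGCACNC or TGCGCNC, on either strand.
Mt2: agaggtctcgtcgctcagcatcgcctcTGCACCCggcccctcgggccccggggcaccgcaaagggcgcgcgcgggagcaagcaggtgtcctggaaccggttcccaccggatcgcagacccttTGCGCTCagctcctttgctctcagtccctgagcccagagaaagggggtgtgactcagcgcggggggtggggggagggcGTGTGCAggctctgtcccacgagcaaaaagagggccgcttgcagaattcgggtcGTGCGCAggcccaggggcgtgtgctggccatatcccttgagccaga
Mt1: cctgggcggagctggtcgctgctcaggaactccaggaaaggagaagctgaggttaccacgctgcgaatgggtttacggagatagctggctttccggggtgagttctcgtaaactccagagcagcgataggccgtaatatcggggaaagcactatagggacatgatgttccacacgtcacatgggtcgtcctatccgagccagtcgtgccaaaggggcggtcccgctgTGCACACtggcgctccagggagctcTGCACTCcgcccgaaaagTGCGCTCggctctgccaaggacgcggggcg
The core occurs 4 times in the Mt2 window and 3 times in the Mt1 window, whereas 25.7% of 32851 promoter windows of this length hold at least 1 match and 1.97% hold 3 or more. A match describes the letters only. Mt2 signal in the fed livers was 11.3 at the lowest, 12.97 at the median and 14.8 at the highest, and in the fasted livers 16.76, 17.23 and 17.68. Every fasted liver was therefore above every fed liver, and the log2 fold change was 4.52 ± 0.49 (SE, a 23.0-fold rise, adjusted p = 2.43e-09). Mt1 ran from 12.54 through 15.11 to 15.96 in fed and from 16.83 through 17.24 to 17.82 in fasted livers, again with no overlap (2.79 ± 0.46, adjusted p = 9.77e-06). The array probe named Pip5k1a rose almost as far (4.11 ± 0.38, adjusted p = 7.21e-11), but the other probes of that name read 0.01 and 0.07, so the rise belongs to a single probe.

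Many glucocorticoid receptor targets rose. Of 20 measured genes 12 rose and none fell, where 2.76% of all genes rose. The median log2 fold change was 0.86 against 0 over all genes (10 to 13 rose under the other settings tried). Fkbp5, a co-chaperone of the glucocorticoid receptor that the receptor itself induces, was 10.63, 11.39 and 11.52 (lowest, median and highest) in fed and 13.04, 13.47 and 13.55 in fasted livers. The groups were separated, with a rise of 2.26 ± 0.24 (adjusted p = 1.95e-09). Klf9, a Krüppel-like repressor, rose by 1.07 ± 0.15 (adjusted p = 4.55e-07) and Zbtb16, a zinc finger transcription factor, by 1.68 ± 0.40 (adjusted p = 0.00132), both without overlap between the groups. Ddit4, an inhibitor of mTORC1, rose by 1.24 ± 0.32 (adjusted p = 0.00255), although its fasted range of 10.78 to 13.08 overlapped the fed range of 10.17 to 11.67. Tsc22d3, a widely used marker of glucocorticoid action, was not called (0.11 ± 0.22, adjusted p = 0.766). Mt1, Mt2 and Lcn2 of this list also stand on the acute phase list, and Angptl4 and Pdk4 on that of PPARα targets.

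Cdkn1a, Gadd45b, Gadd45g, Il1r1 and Gpcpd1 were also among the 12 largest rises without overlap. Cdkn1a, which encodes the cyclin-dependent kinase inhibitor p21, ran from 8.28 through 9.3 to 10.17 in fed and from 10.69 through 11.52 to 12.74 in fasted livers (2.41 ± 0.42, adjusted p = 2.78e-05). Gadd45b, a stress sensor of the GADD45 family, was 6.79, 7.1 and 8.44 in fed livers and had a lowest value of 8.65 and a median of 9.43 in fasted ones (2.19 ± 0.30, adjusted p = 4.99e-07). For both genes the lowest fasted liver stood above the highest fed one. The related Gadd45g rose by 2.01 ± 0.53 (adjusted p = 0.00347), by 3.03 within the first washing batch and 1.21 within the second. Il1r1, the receptor of interleukin 1, was also separated between the groups, at 9.65 to 10.41 in fed and 11.57 to 12.79 in fasted livers (2.12 ± 0.23, adjusted p = 2.09e-09). Gpcpd1, a glycerophosphocholine phosphodiesterase, rose by 2.10 ± 0.23 (adjusted p = 3.57e-09), and its 4 probes read between 2.10 and 2.37.

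Lipogenic genes led the named falls. Of 24 measured genes of fatty acid synthesis and lipogenesis 12 fell and 1, Lpin1, rose (11 to 13 fell under the other settings), where 3.14% of all genes fell. The median was -0.66, and 13 of the 24 had no overlap between fasted and fed livers, a separation seen in 8.44% of all genes. Elovl6, which elongates palmitate to stearate, was 11.98, 12.44 and 12.98 in fed and 9.9, 9.98 and 10.28 in fasted livers (-2.55 ± 0.21, adjusted p = 3.39e-12). Fasn, fatty acid synthase, was 14.25, 14.87 and 15.42 in fed and 12.12, 12.68 and 13.07 in fasted livers (-2.30 ± 0.21, a 4.93-fold fall, adjusted p = 7.21e-11). Both genes were without overlap between the groups, and the fed and fasted ranges of Elovl6 lay further apart than either was wide. Acly, which makes cytosolic acetyl-CoA from citrate, fell by 1.67 ± 0.17 (adjusted p = 1.09e-09) and Acaca, acetyl-CoA carboxylase 1, by 1.24 ± 0.14 (adjusted p = 8.26e-09). Mid1ip1, a partner of acetyl-CoA carboxylase, fell by 2.20 ± 0.25 (adjusted p = 1.28e-08) and its relative Thrsp by 2.40 ± 0.35 (adjusted p = 1.22e-06), the former without and the latter with overlap. Scd1, the stearoyl-CoA desaturase, fell by 1.03 ± 0.27 (adjusted p = 0.00326) from a fed range of 14.01 to 15.72, of which fed replicate 3 was the highest. Gpam, the first enzyme of glycerolipid synthesis, was not called (-0.28 ± 0.17, adjusted p = 0.225).

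The regulator of this programme fell as well. Srebf1, which encodes SREBP-1, was 14.74, 15.12 and 15.51 in fed and 12.35, 13.61 and 14.24 in fasted livers (-1.66 ± 0.23, adjusted p = 4.16e-07), and every fasted liver lay below every fed liver. Lpin1 went the opposite way. It encodes lipin 1, a phosphatidate phosphatase that also acts as a coactivator of PPARα, and it also stands on the list of FOXO and fasting hormone targets. Its signal was 9.84, 11.47 and 12.53 in fed and 12.91, 13.64 and 14.41 in fasted livers (2.47 ± 0.44, adjusted p = 3e-05).

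Some cholesterol synthesis genes also fell. Of 24 measured genes 10 fell and none rose (9 to 12 fell under the other settings), with a median of -0.54. Fdps, farnesyl diphosphate synthase, fell by 1.19 ± 0.25 (adjusted p = 0.000346). Stard4, a sterol transfer protein, fell by 1.26 ± 0.18 (adjusted p = 7.04e-07). Of 26 genes of lipoproteins and lipid transport 1 fell, or 3.85%, where 3.14% of all genes fell. A sterol element spelled TCACNCCAC occurs on either strand in 2 of the 46 promoter windows (4.35%) of 36 lipogenic and cholesterol genes matched to RefSeq, those of Hmgcs1 and Mlxipl, and in 1.24% of all windows.

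**Figure D2:**
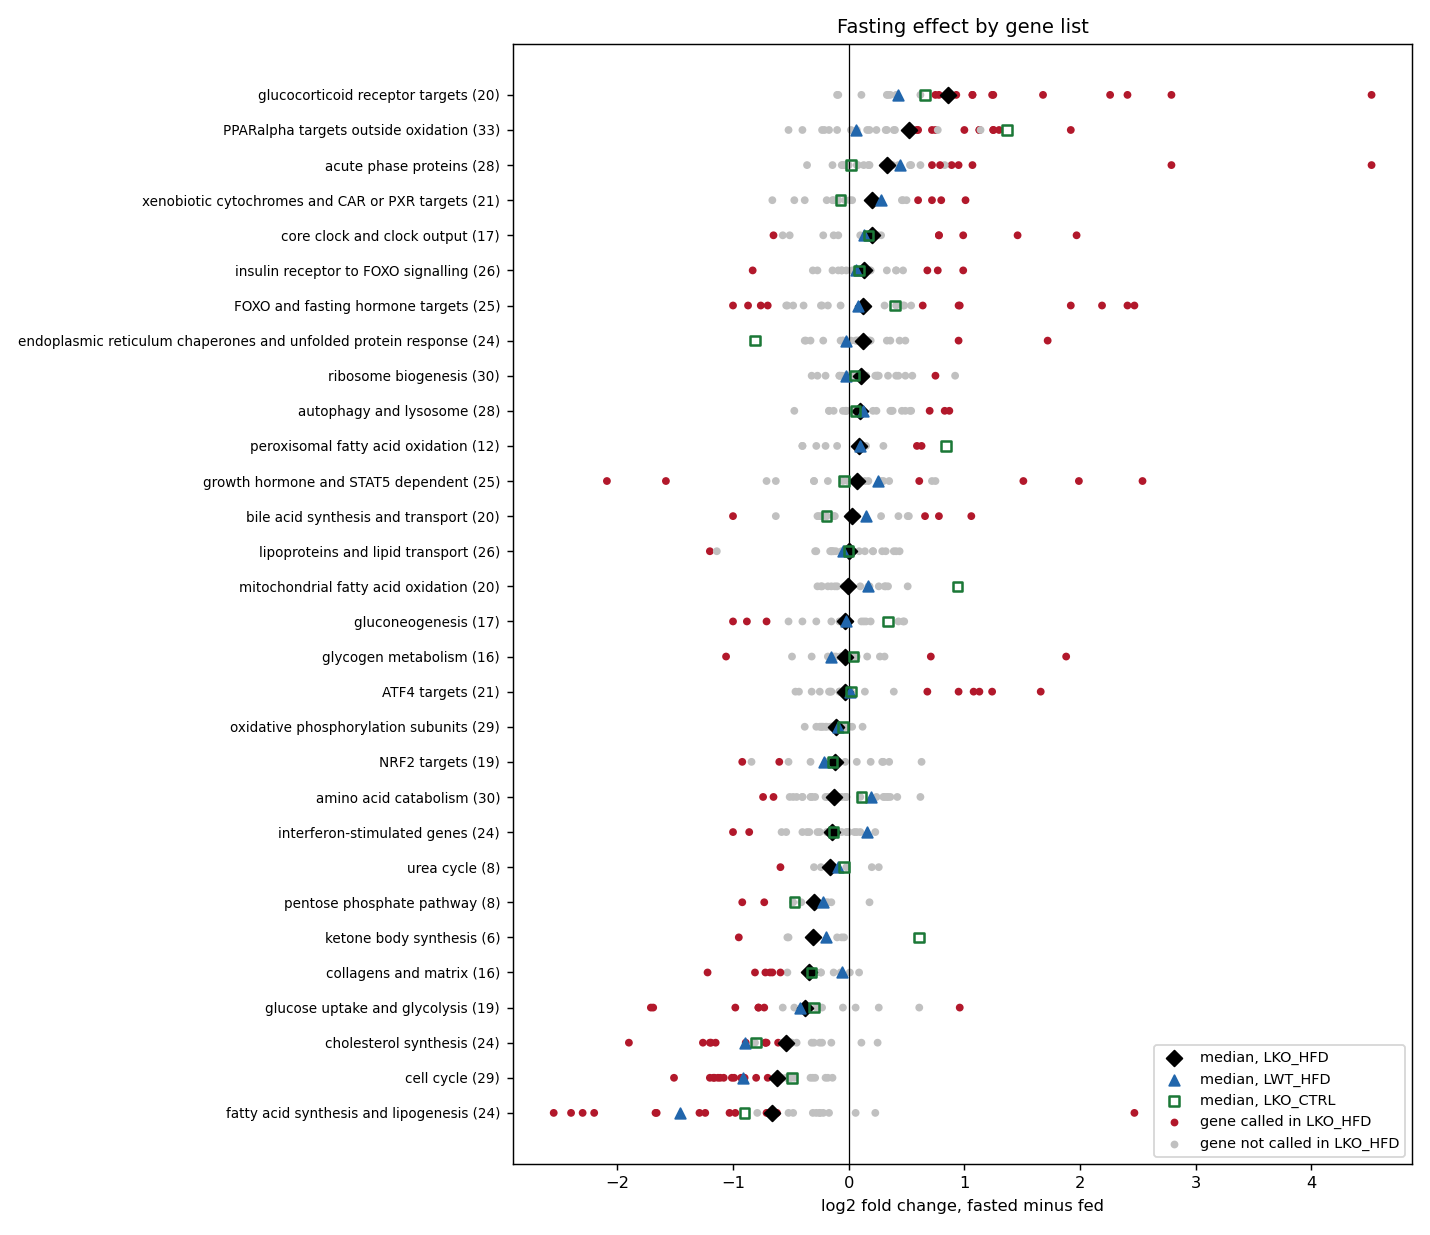
Log2 fold change of fasting for each measured gene of the pathway lists (dots, red where called in p110α hep-/- livers on HFD and grey otherwise), with the median of each list in those livers (black diamonds), in p110α hep+/+ livers on HFD (blue triangles) and in p110α hep-/- livers on CTRL diet (green open squares). Brackets give the number of genes measured, and the median of mitochondrial fatty acid oxidation lies at -0.01, 0.17 and 0.94 in these 3 settings.

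Some genes of sugar breakdown fell, and no gluconeogenic gene rose. Of 19 genes of glucose uptake and glycolysis 6 fell and 1 rose, with a median of -0.38, and of 8 genes of the pentose phosphate pathway 2 fell, with a median of -0.30. The shares over all genes were 3.14% for falls and 2.76% for rises. Pklr, liver pyruvate kinase, was 7.91, 9.26 and 9.66 in fed and 7.06, 7.43 and 8.11 in fasted livers (-1.69 ± 0.24, adjusted p = 8.66e-07), with a slight overlap. Khk, ketohexokinase of fructose breakdown, fell by 0.98 ± 0.13 (adjusted p = 2.37e-07), and Pgd, which makes NADPH in the pentose phosphate pathway, fell by 0.92 ± 0.12 (adjusted p = 1.93e-07). The single rise was Pfkfb3, which makes the activator of phosphofructokinase (0.96 ± 0.31, adjusted p = 0.0172), and it lost its call without fasted replicate 1 or 3, with values between 0.76 and 1.17 when 1 array was left out.

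Of 17 gluconeogenic genes none rose and 3 fell, with a median of -0.03, where 2.76% of all genes rose and 3.14% fell. G6pc, the catalytic subunit of glucose-6-phosphatase, was 15, 15.15 and 15.74 in fed and 13.56, 14.31 and 14.74 in fasted livers, lower in every fasted than in every fed liver (-1.0 ± 0.23, adjusted p = 0.000958). Fbp1, fructose-1,6-bisphosphatase, fell by 0.71 ± 0.06 (adjusted p = 4.24e-12) and Gpd1, glycerol-3-phosphate dehydrogenase, by 0.88 ± 0.12 (adjusted p = 4.55e-07). Pck1, the cytosolic PEP carboxykinase, had a value of 0.47 ± 0.23 (adjusted p = 0.126) and Ppargc1a, a coactivator of gluconeogenic and oxidative genes, one of 0.11 ± 0.16 (adjusted p = 0.667), and neither was called. In glycogen metabolism Pygl, liver glycogen phosphorylase, fell by 1.06 ± 0.09 (adjusted p = 5.78e-12) with no overlap. Ppp1r3b and Ppp1r3g, which direct protein phosphatase 1 to glycogen and favour its synthesis, rose by 0.71 ± 0.13 (adjusted p = 3.52e-05) and by 1.88 ± 0.34 (adjusted p = 4.38e-05), and the other 13 of 16 genes were not called.

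Genes of fatty acid oxidation moved little. Of the 20 mitochondrial ones none was called, with values from -0.27 to 0.51 and a median of -0.01. Cpt1a, which commits fatty acids to mitochondrial oxidation, was 14.6, 14.83 and 14.98 in fed and 14.83, 15.04 and 15.22 in fasted livers (0.18 ± 0.10, 95% interval -0.02 to 0.39, adjusted p = 0.19). Its fasted and fed livers overlapped. Of the 6 ketone body genes measured 1 was called, Slc16a6, a transporter that lets ketone bodies leave hepatocytes, and it fell (-0.95 ± 0.19, adjusted p = 0.00022). Bdh1, which turns acetoacetate into 3-hydroxybutyrate, passed the p threshold alone (-0.52 ± 0.12, adjusted p = 0.0011). Of 12 peroxisomal genes 2 rose, where 2.76% of all genes rose. Ehhadh, the peroxisomal bifunctional enzyme, rose by 0.63 ± 0.19 (adjusted p = 0.0123) and lost its call without fasted replicate 5 or 6 or fed replicate 1 or 6 (0.44 to 0.78 with 1 array left out), while Pex11a at 0.59 lost it without fasted replicate 4, 5 or 6 or fed replicate 1, 3 or 6 (0.46 to 0.73).

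Some PPARα targets outside oxidation rose. Of 33 measured genes 11 rose and none fell (7 to 14 rose under the other settings, 10 without fed replicate 3), where 2.76% of all genes rose. The median was 0.52. Plin4, a lipid droplet coat protein, was 9.04, 10.22 and 11.45 in fed and 11.52, 12.2 and 12.94 in fasted livers (1.92 ± 0.30, adjusted p = 5.43e-06), and Pnpla2, adipose triglyceride lipase, was 11.64, 11.81 and 12.11 against 12.75, 13.11 and 13.33 (1.25 ± 0.13, adjusted p = 1.65e-09). Neither gene overlapped between the groups. Fgf21, a hormone that the fasting liver releases, ran from 7.46 through 7.84 to 8.89 in fed and from 8.39 through 8.74 to 10.16 in fasted livers (1.13 ± 0.26, adjusted p = 0.000903), where the highest fed liver was replicate 3. Acot1, a cytosolic acyl-CoA thioesterase, rose by 1.30 ± 0.23 (adjusted p = 2.68e-05) and Cyp4a10, a fatty acid ω-hydroxylase, by 1.13 ± 0.27 (adjusted p = 0.00111). Angptl4, an inhibitor of lipoprotein lipase, rose by 0.75 ± 0.18 (adjusted p = 0.00104). Pdk4, the kinase that shuts pyruvate dehydrogenase, was 7.78, 8.87 and 9.33 in fed and 8.57, 10.09 and 11.88 in fasted livers (1.25 ± 0.43, adjusted p = 0.0258), and its call was lost without fasted replicate 5 or 6 or fed replicate 2 (0.88 to 1.63). Ppara itself was separated between the groups but below the fold threshold (0.39 ± 0.08, adjusted p = 0.00018).

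**Figure D3:**
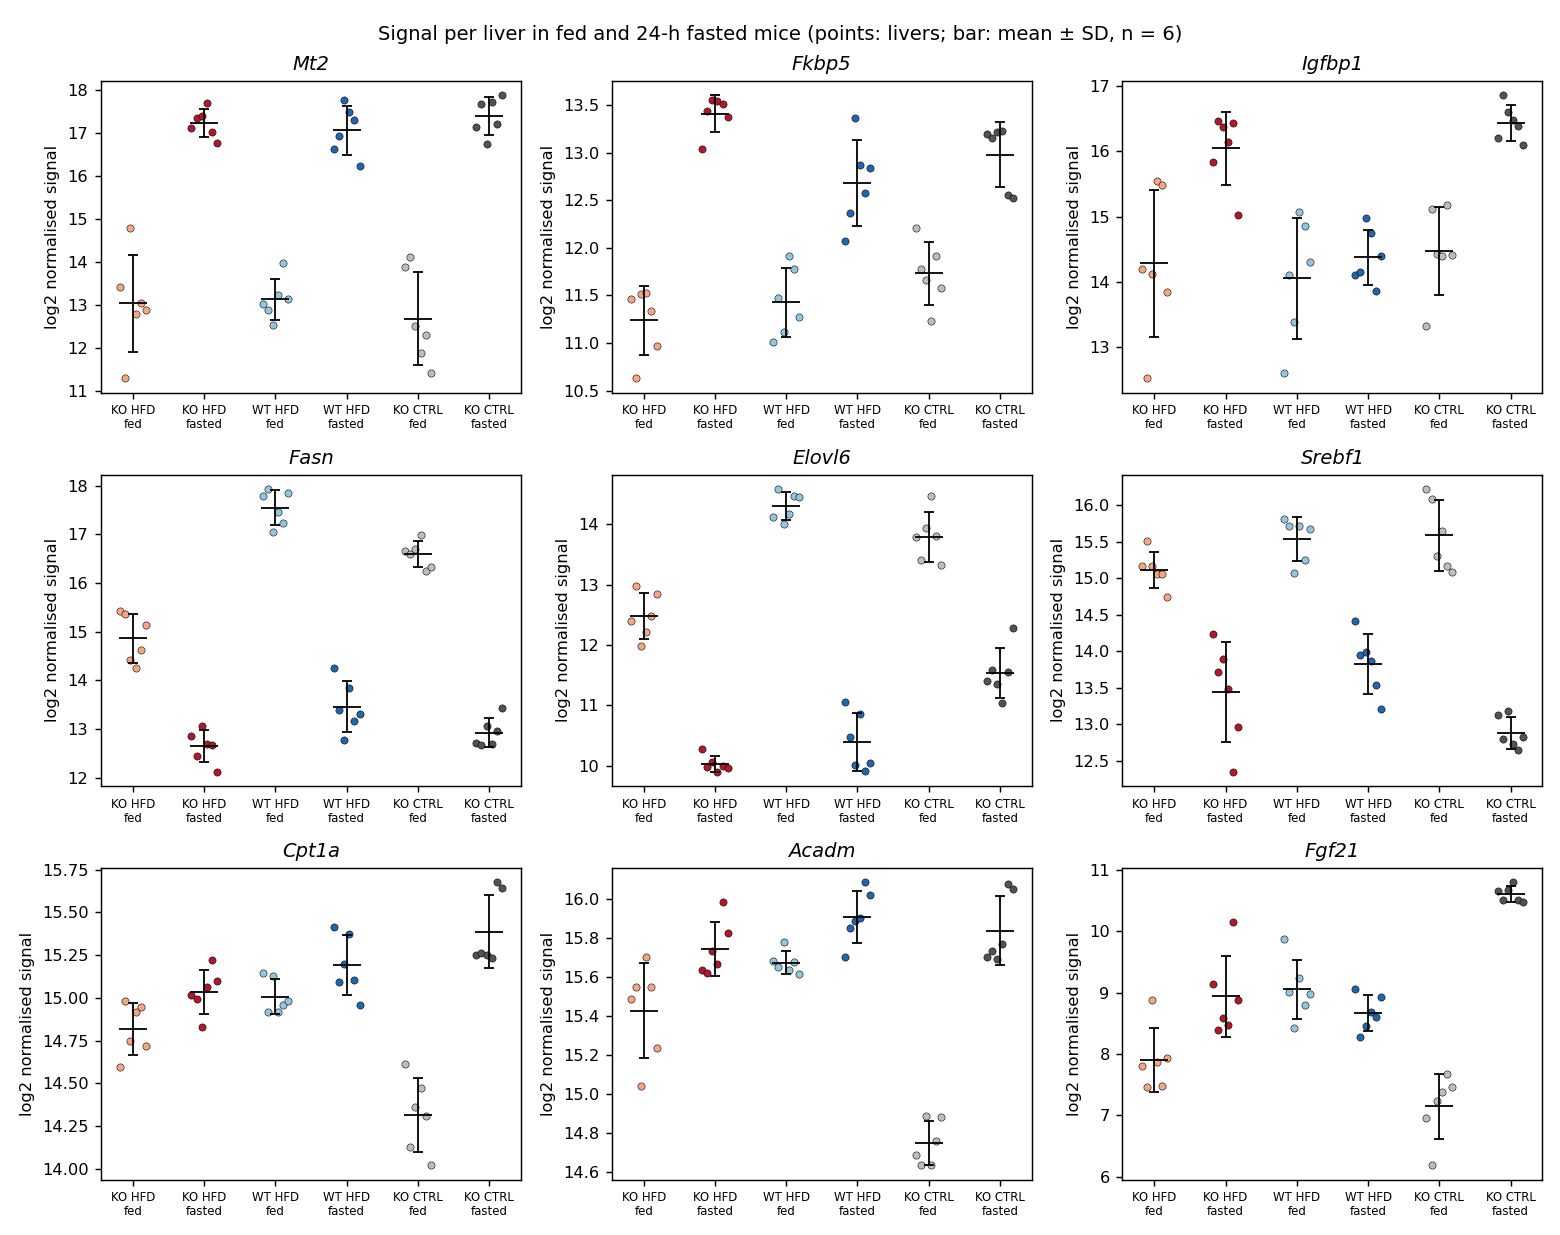
Log2 normalised signal of 9 genes in fed and fasted p110α hep-/- (KO) livers on HFD, p110α hep+/+ (WT) livers on HFD and p110α hep-/- livers on CTRL diet, with 1 point per liver and the mean ± SD (n = 6). Fasted p110α hep-/- livers on HFD lie above fed ones for Mt2 and Fkbp5 and below them for Fasn, Elovl6 and Srebf1, while their Cpt1a and Acadm points overlap.

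Insulin-regulated FOXO targets moved in both directions. Of 25 FOXO and fasting hormone targets 7 rose and 4 fell, with a median of 0.12, where 2.76% of all genes rose and 3.14% fell. Igfbp1, an insulin-suppressed IGF-binding protein and a classical FOXO1 target, was 12.52, 14.16 and 15.55 in fed and 15.02, 16.26 and 16.46 in fasted livers (1.92 ± 0.50, a 3.78-fold rise, adjusted p = 0.00303), with a narrow overlap. Txnip, a brake on glucose uptake, rose by 0.96 ± 0.19 (adjusted p = 0.000159). G6pc, on this list too, fell as given above, and Irs2, the insulin receptor adaptor that FOXO1 induces, was not called (0.41 ± 0.29, adjusted p = 0.331). On the list of 26 genes of insulin receptor to FOXO signalling 3 rose and 1 fell. Among them Foxo1 rose by 0.99 ± 0.15 (adjusted p = 1.47e-06), from 11.36 to 12.16 in fed to 12.59 to 13.03 in fasted livers.

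Growth hormone and clock genes supplied further named changes. Of 25 genes that depend on growth hormone and STAT5, 4 rose and 2 fell, where 2.76% of all genes rose and 3.14% fell. Socs2, the feedback inhibitor of growth hormone signalling, was 7.89, 9.42 and 10.41 in fed and 10.53, 11.39 and 12.6 in fasted livers (2.54 ± 0.43, adjusted p = 1.37e-05). Cux2, a female-predominant repressor in mouse liver, rose by 1.99 ± 0.33 (adjusted p = 9.66e-06) and was well above background in 6 fasted livers and 1 fed liver, so that the size of this rise rests on fed signals near background. Elovl3, a male-predominant and clock-controlled elongase, fell by 1.58 ± 0.42 (adjusted p = 0.00374), with fed replicate 3 far below the other fed livers at 11.46. Rgs16, a regulator of G protein signalling, was 9.29, 12.19 and 13.29 in fed and 13.29, 14.5 and 15.27 in fasted livers (2.43 ± 0.48, adjusted p = 0.000126).

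Of 17 core clock and clock output genes 5 rose and 1 fell, where 2.76% of all genes rose and 3.14% fell. The median was 0.20, all livers having been taken at ZT16. Ciart, a repressor of the CLOCK and BMAL1 complex, changed most, at 5.6, 6.18 and 6.43 in fed and 7.04, 8.32 and 8.51 in fasted livers (1.97 ± 0.35, adjusted p = 2.69e-05). Its promoter window is shown because it holds the binding word of that complex, the E-box CACGTG, 3 times (chr3:95882179-95882478, minus strand, RefSeq GRCm38.p6, capitals marking the E-boxes).
Ciart: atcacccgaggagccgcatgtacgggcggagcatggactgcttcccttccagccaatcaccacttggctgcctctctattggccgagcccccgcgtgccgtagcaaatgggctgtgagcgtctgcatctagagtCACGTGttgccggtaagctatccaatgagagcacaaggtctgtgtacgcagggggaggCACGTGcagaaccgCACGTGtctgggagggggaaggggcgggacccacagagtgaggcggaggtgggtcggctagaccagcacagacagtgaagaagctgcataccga
The E-box occurs in 5 of 19 promoter windows (26.3%) of 14 matched clock genes, those of Ciart, Cry1, Per1 and Tef, and in 7.15% of all windows, of which 0.0883% hold 3 or more. Dbp, a clock output transcription factor, rose by 1.46 ± 0.33 (adjusted p = 0.000644), Per1 by 0.78 ± 0.23 (adjusted p = 0.00949) and Nr1d1, which encodes REV-ERBα, by 0.78 ± 0.21 (adjusted p = 0.00376), all with some overlap between the groups. A single sampling time was measured, so a shift in phase and a change in level cannot be told apart.

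Cell cycle genes were lower in fasted livers. All 29 measured genes had a negative value, 16 of them fell and none rose, where 3.14% of all genes fell. The median was -0.62, and 12 had no overlap, as did 8.44% of all genes. Rrm2, a subunit of ribonucleotide reductase, fell by 1.51 ± 0.22 (adjusted p = 1.57e-06), Top2a, topoisomerase IIα, by 1.20 ± 0.17 (adjusted p = 1.2e-06) and Mki67, the Ki-67 proliferation marker, by 1.17 ± 0.17 (adjusted p = 1.49e-06). Their signals were low, with Mki67 at 7.6 to 8.49 in fed and 6.46 to 7.01 in fasted livers, and the count of falls ranged from 12 to 23 over the other settings. Mcm3, a subunit of the replicative helicase, fell by 1.08 ± 0.21 (adjusted p = 0.000159). Other genes of cell division or DNA replication had a signal well above background in fed but in no fasted liver, so that only bounds can be given. By group means Knl1 (Casc5 on the array), a kinetochore scaffold, was at least 1.52-fold lower (adjusted p = 1.48e-05). Pbk, a mitotic kinase, was at least 1.5-fold lower (adjusted p = 0.00117) and Dtl, an adaptor of a ubiquitin ligase, at least 1.44-fold lower (adjusted p = 0.00162). These bounds carry no sampling error, and the tests used fasted signals that were not well above background. The 95% intervals of the log2 fold change were -0.93 to -0.46 for Knl1, -1.24 to -0.44 for Pbk and -1.07 to -0.37 for Dtl. Each reached changes smaller than its bound. On these whole-liver arrays fewer cells of a type and less RNA per cell cannot be told apart.

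Some genes were not well above background in any fed liver and rose after fasting. The largest bound was that of Hif3a, an inducible member of the hypoxia-inducible factor family, at least 2.16-fold higher (adjusted p = 6.34e-07). Tmem100, a membrane protein gene, was at least 1.96-fold higher (adjusted p = 1.02e-06), and Msmp, which encodes a secreted microseminoprotein, at least 1.54-fold (adjusted p = 0.0235). The Msmp call was lost without fasted replicate 5 or 6 (0.55 to 0.84 on the log2 scale with 1 array left out). Bounds compare the mean of the measurable group with a mean over the arrays of the other. On each of those arrays the lowest signal still well above background was used, or the gene's own signal where that was higher. For Hif3a and Tmem100 the bounds (1.11 and 0.97 on the log2 scale) were therefore close to the fold changes (1.18 and 1.01). Bounds carry no sampling error. The 95% intervals of the log2 fold change were 0.85 to 1.51 for Hif3a, 0.72 to 1.3 for Tmem100 and 0.23 to 1.25 for Msmp. Each reached below its bound.

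Single falls outside these groups were also steep. Car3, carbonic anhydrase 3, abundant in adipocytes and also in liver, was 16.25, 17.06 and 17.44 in fed and 14.89, 15.22 and 15.67 in fasted livers (-1.84 ± 0.17, adjusted p = 3.74e-11). This is its brightest probe, and the dimmer ones read -3.99 and -4.29. Sucnr1, the succinate receptor, fell by 1.68 ± 0.17 (adjusted p = 3.1e-10). Hcn3, a cation channel gene, fell by 2.01 ± 0.20 (adjusted p = 3.97e-10), Tmie, a gene of the hair-cell transduction complex, by 1.61 ± 0.17 (adjusted p = 1.95e-09) and Slc41a2, a magnesium transporter gene, by 1.58 ± 0.24 (adjusted p = 2.96e-06). These 5 genes were picked from those without overlap between fasted and fed livers. Tkfc, which phosphorylates the trioses of fructose breakdown, fell by 1.71 ± 0.17 (adjusted p = 6.31e-10) on its brightest probe, while a dimmer probe read 0.60.

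Other lists ranged from no called gene to more than the 5.9% called over all genes. Ribosome biogenesis genes (3.33%) and amino acid catabolism genes (6.67%) lay near that share, whereas xenobiotic genes (19%), bile acid genes (20%), acute phase genes (25%) and ATF4 targets (28.6%) lay above it. Autophagy and lysosome genes rose in 3 of 28 cases, among them Bnip3, a mitophagy receptor (0.87 ± 0.09, adjusted p = 2.32e-10), and Map1lc3b, which encodes the autophagosome protein LC3B, at 13.1 to 13.45 in fed and 14.01 to 14.31 in fasted livers (0.83 ± 0.07, adjusted p = 4.24e-12). Of 28 acute phase genes 7 rose and none fell, including Lbp, the lipopolysaccharide-binding protein (0.95 ± 0.12, adjusted p = 1.1e-07), with a median of 0.33. Of 21 ATF4 targets 6 rose, although the median was -0.03. Among these Chac1, which degrades glutathione, rose by 1.66 ± 0.51 (adjusted p = 0.0125), a call lost without fed replicate 1 or 2 (1.19 to 2.09 with 1 array left out). Of 30 amino acid catabolism genes 2 fell and none rose. Cbs, the first enzyme of transsulfuration, was one that fell (-0.74 ± 0.11, adjusted p = 9.43e-07). Of 30 ribosome biogenesis genes 1 rose, Npm1, the nucleolar chaperone nucleophosmin (0.75 ± 0.07, adjusted p = 3.62e-10). Of 21 xenobiotic cytochromes and CAR or PXR targets 4 rose, including Por, the electron donor of microsomal cytochromes P450, at 15.44 to 16.28 in fed and 16.73 to 16.93 in fasted livers (1.01 ± 0.14, adjusted p = 4.56e-07). Of 20 genes of bile acid synthesis and transport 3 rose and 1 fell, and of 19 NRF2 targets 2 fell. Of 8 urea cycle genes 1 fell, Slc25a15, the mitochondrial ornithine carrier (-0.59), a call lost without fasted replicate 5 or 6 or fed replicate 3 or 5 (-0.69 to -0.46 with 1 array left out). Of 29 oxidative phosphorylation subunits none was called, with 27 values below 0 and a median of -0.11. Of 24 interferon-stimulated genes 2 fell, Cxcl10 and Oasl1, an antiviral 2'-5' oligoadenylate synthetase-like protein (-1.0 ± 0.18, adjusted p = 3.9e-05). Over all 30 pathway lists 134 of 614 genes were called, beside 1209 of 20486 over the array.

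Markers of the cell types in a liver were followed in the same livers. The summed level of 14 hepatocyte markers was 21.34 to 21.40 in fasted and 21.32 to 21.38 in fed livers, with Hnf4a alone called (0.63 ± 0.09). The summed level of 16 Kupffer cell and macrophage markers was 15.21 to 16.21 against 15.54 to 16.43, with none called. Those of 11 sinusoidal endothelium markers (14.70 to 14.89 against 14.67 to 14.83) and 10 stellate cell markers (15.88 to 16.20 against 15.83 to 16.07) overlapped as well, with Lyve1, an endothelial hyaluronan receptor, rising (0.82 ± 0.25, adjusted p = 0.0106) and Acta2, smooth muscle actin, falling on its brightest probe (-0.86 ± 0.09, adjusted p = 1.6e-09) but not on another (0.04). The summed level of 7 adipocyte markers was 15.08 to 15.84 in fasted and 16.32 to 17.51 in fed livers, a sum in which Car3 was the brightest gene. Car3 was also the single one called and the single one without overlap, and of the 7 fold changes 3 were positive and 4 negative. Without fed replicate 3, 2 adipocyte and 2 stellate cell markers fell, and 2 hepatocyte markers rose. The 6 cholangiocyte markers were at 9.72 to 10.13 in fasted and 10.08 to 10.43 in fed livers, and Spp1, the osteopontin gene, fell (-0.66 ± 0.20, adjusted p = 0.00987), a call lost without fed replicate 2 (-0.73 to -0.58 with 1 array left out). Of 16 collagen and matrix genes 6 fell and none rose (3 to 7 fell under the other settings), with a median of -0.34, where 3.14% of all genes fell. Among them was Col3a1, a fibrillar collagen gene of stellate cells, on its brightest probe (-1.22 ± 0.22, adjusted p = 4.82e-05). The dimmer Col3a1 probes read -0.36 and -0.56. Of 9 lymphocyte markers Cd4 alone was called on its brightest probe (0.75) while another read 0.03, and of 8 neutrophil and 6 erythroid markers none was called. Exocrine pancreas markers, of which 5 were measured, had 1 rise and 1 fall, with values from -0.75 to 1.52. The part of cell composition in these changes was not tested.

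The fasting effect was next set beside that of p110α hep+/+ mice on HFD, which asks whether hepatocyte p110α alters the response on the same diet. There 964 genes were called (4.71%), of which 527 were called in the same direction in p110α hep-/- livers, that is 54.7% of the former list and 43.6% of the latter, and 2 were called in opposite directions. The interaction test called 280 genes (1.37%), 148 with a positive difference (0.722%) and 132 with a negative one (0.644%). Without fed replicate 2 these counts were 182, 103 and 79, and without array weights they were 168, 103 and 65. On the lipogenesis list 8 of 24 genes had a positive interaction and none a negative one, although 2 of the 8, Pnpla3 and Pnpla5, were not well above background in any fasted p110α hep-/- liver on HFD. The list's median fasting effect of -0.66 in p110α hep-/- livers compared with -1.46 in p110α hep+/+ livers. Fasn fell by 2.30 in the former and by 4.14 in the latter, an interaction of 1.84 ± 0.28 (adjusted p = 6.15e-05). The means show where the groups parted. Fed p110α hep-/- livers stood at 14.86 ± 0.50 where fed p110α hep+/+ livers stood at 17.55 ± 0.36 (SD, n = 6 each), and the fasted means were 12.64 ± 0.33 and 13.46 ± 0.52. Acly differed by 1.93 ± 0.23 (adjusted p = 9.26e-07), Acaca by 1.30 ± 0.19 (adjusted p = 1.98e-05), Elovl6 by 1.34 ± 0.27 (adjusted p = 0.00261) and Gpam by 1.23 ± 0.22 (adjusted p = 0.000568), whereas for Srebf1 the interaction was 0.06 ± 0.30 (adjusted p = 0.958).

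Positive interactions were also found outside the lipogenesis list. Rgs16 rose in p110α hep-/- livers and had a value of -1.05 (adjusted p = 0.0521) in p110α hep+/+ livers, an interaction of 3.48 ± 0.63 (adjusted p = 0.000603). Slc2a4, the insulin-responsive glucose transporter GLUT4, fell in p110α hep+/+ livers by 3.26 (adjusted p = 5.2e-17) and had a value of -0.36 (adjusted p = 0.258) here, an interaction of 2.89 ± 0.30 (adjusted p = 4.32e-08). Its mean in fed p110α hep-/- livers was 7.37 ± 0.36, below that of 9.33 ± 0.38 in the fed p110α hep+/+ ones. Gprc5b, an orphan receptor gene, showed the same order, with fed means of 6.45 ± 0.38 and 9.01 ± 0.83, fasting effects of 0.03 and -1.77 and an interaction of 1.80 ± 0.38 (adjusted p = 0.0034). Ppp1r3g rose here and had a value of -0.56 (adjusted p = 0.162) there (2.45 ± 0.45, adjusted p = 0.000769), and Fgf21 likewise differed, with 1.13 against -0.44 (1.57 ± 0.34, adjusted p = 0.0051). Dusp1, a MAP kinase phosphatase, was called in both genotypes with opposite signs, 0.93 ± 0.31 (adjusted p = 0.0226) and -0.85 (adjusted p = 0.0156), with an interaction of 1.78 ± 0.41 (adjusted p = 0.00925). Its rise in p110α hep-/- livers lost the call without fasted replicate 1 or 3 or fed replicate 5 or 6 (0.74 to 1.1 with 1 array left out).

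Among the negative interactions Car3 fell by 1.84 here and had a value of -0.19 (adjusted p = 0.353) in p110α hep+/+ livers (-1.64 ± 0.22, adjusted p = 7.91e-06). Slc41a2 differed by -1.54 ± 0.32 (adjusted p = 0.00287). Nat8, an N-acetyltransferase gene, fell here by 0.85 ± 0.19 and rose there by 0.61 (-1.46 ± 0.25, adjusted p = 0.000352), and Ankrd2, an ankyrin repeat gene, fell here by 1.20 ± 0.17 and had a value of 0.19 (adjusted p = 0.349) there (-1.39 ± 0.22, adjusted p = 0.000107). Slc22a7, an organic anion transporter gene (-1.72 ± 0.45, adjusted p = 0.0229), and Gbp11, a guanylate-binding protein gene (-1.50 ± 0.42, adjusted p = 0.0334), had adjusted p-values nearer the threshold. The interaction of Slc22a7 was lost without fed replicate 2 or 6 (-1.90 to -1.51 with 1 array left out), and that of Gbp11 without any of fasted replicates 1 to 3 or fed replicates 2, 4 and 6 (-1.70 to -1.27).

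The comparison with p110α hep-/- mice on CTRL diet asks whether the diet alters the response when hepatocyte p110α is missing. On CTRL diet 1449 genes were called (7.07%), and 557 of them were called in the same direction on HFD, 38.4% of that list and 46.1% of the HFD list, with 15 called in opposite directions. The interaction test called 591 genes (2.88%), 227 positive (1.11%) and 364 negative (1.78%). Most genes on the lists of fatty acid oxidation had a negative interaction. On the mitochondrial list 14 of 20 genes rose on CTRL diet, where 3.65% of all genes rose, and none on HFD, and 14 had a negative interaction, none a positive one. The peroxisomal list had 9 negative interactions of 12, the ketone body list 5 of 6 and the list of other PPARα targets 19 of 33, again with no positive one. In p110α hep+/+ livers on HFD the mitochondrial median was 0.17 with 1 gene rising (2.24% of all genes rose there), and no gene of the mitochondrial list had a genotype interaction.

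The group means show which livers differed. Cpt1a was 14.82 ± 0.15 in fed and 15.04 ± 0.13 in fasted livers on HFD, against 14.32 ± 0.22 and 15.39 ± 0.21 on CTRL diet (interaction -0.82 ± 0.14, adjusted p = 8.43e-05). The fed mean was higher and the fasted mean lower on HFD than on CTRL diet. Hadha, the mitochondrial trifunctional protein subunit, differed by -1.06 ± 0.12 (adjusted p = 7.57e-08), Slc22a5, the carnitine transporter, by -1.57 ± 0.18 (adjusted p = 7.46e-08) and Acadm, medium-chain acyl-CoA dehydrogenase, by -0.77 ± 0.13 (adjusted p = 4.77e-05). Ehhadh rose by 0.63 on HFD and 2.63 on CTRL diet (-2.0 ± 0.26, adjusted p = 6.64e-07), and Fgf21 by 1.13 and 3.43 (-2.30 ± 0.35, adjusted p = 1.42e-05).

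Lamb3, a laminin chain gene, had the largest negative diet interaction among the named genes, with a value of -0.72 on HFD and a rise of 2.95 on CTRL diet (-3.66 ± 0.42, adjusted p = 5.9e-08). Cidec, a lipid droplet fusion protein, had a value of 0.56 on HFD and rose by 4.08 on CTRL diet (-3.52 ± 0.62, adjusted p = 0.000154), with fed means of 9.48 ± 0.94 and 8.13 ± 0.59. Pdk4 (-2.88 ± 0.58, adjusted p = 0.00095), Acot2, a mitochondrial acyl-CoA thioesterase (-2.76 ± 0.38, adjusted p = 1.63e-06), Cyp4a14 (-2.70 ± 0.61, adjusted p = 0.00326) and G0s2, an inhibitor of adipose triglyceride lipase (-2.55 ± 0.57, adjusted p = 0.0028), followed. G6pc fell on HFD and had a value of 0.34 (adjusted p = 0.224) on CTRL diet (-1.34 ± 0.31, adjusted p = 0.00437). Txnip rose in both settings, by 0.96 and 2.14 (-1.18 ± 0.26, adjusted p = 0.00247).

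**Figure D4:**
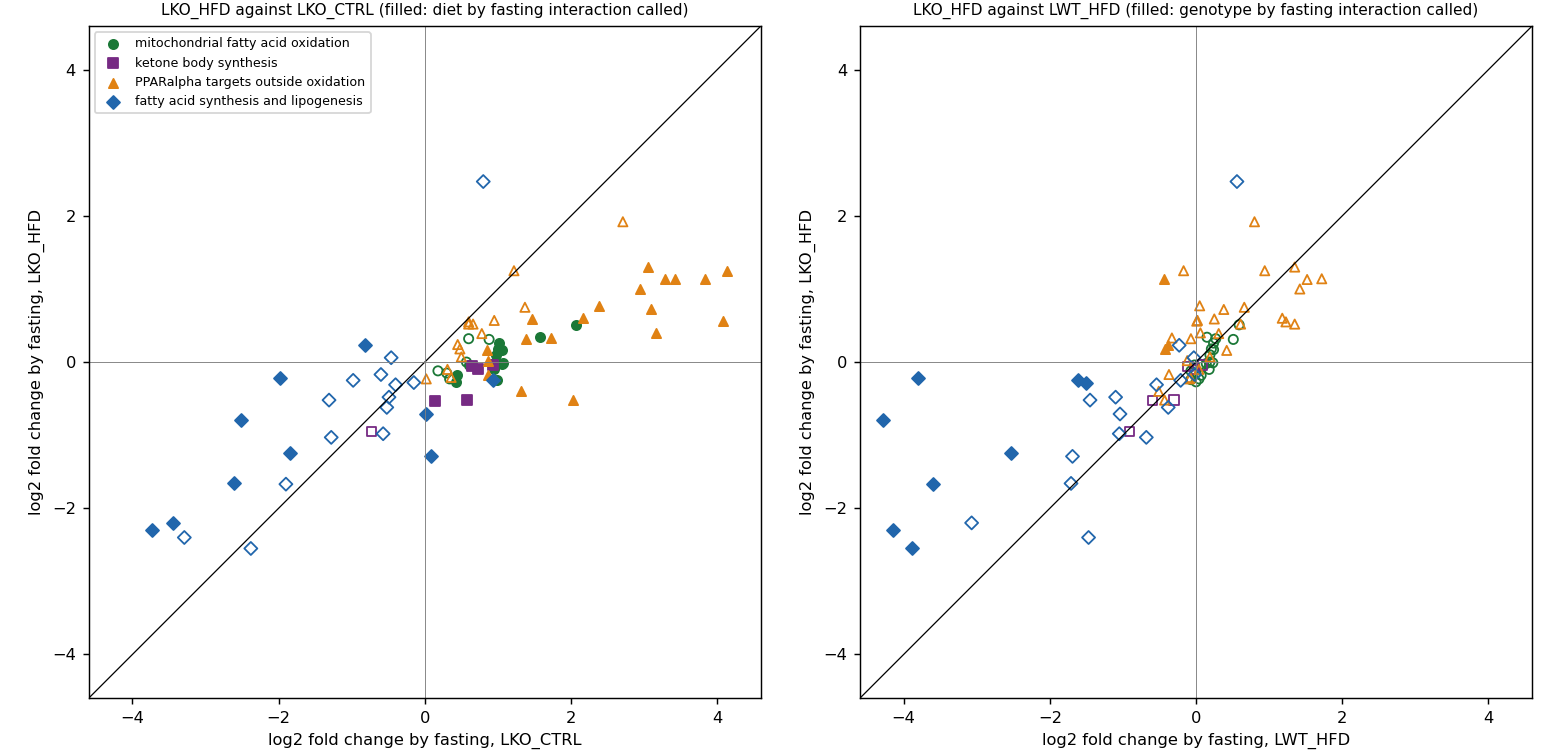
Fasting effect in p110α hep-/- livers on HFD (y axis, log2 fold change) against that in p110α hep-/- livers on CTRL diet or p110α hep+/+ livers on HFD (x axes) for genes of 4 lists, with filled symbols where the interaction was called and a diagonal where both effects are equal. Most oxidation, ketone body and other PPARα genes lie below the diagonal against CTRL diet, and lipogenic genes such as Fasn (-2.30 against -4.14) lie above it against p110α hep+/+ livers.

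Among positive diet interactions, Cyp2c70, the enzyme that makes muricholic acids in mice, rose on HFD by 1.06 ± 0.32 and fell on CTRL diet by 2.36 (3.42 ± 0.43, adjusted p = 3.5e-07). Cyp27a1, the sterol 27-hydroxylase of bile acid synthesis, was separated between fasted and fed livers on HFD (0.78 ± 0.13) and had a value of -0.23 on CTRL diet (1.00 ± 0.17, adjusted p = 8.22e-05). Slc2a4 differed by 2.52 ± 0.31 (adjusted p = 2.25e-07) and Fasn by 1.43 ± 0.29 (adjusted p = 0.000947). For Srebf1 the difference of 0.95 ± 0.31 (adjusted p = 0.0481) was lost without fed replicate 3 (0.93, adjusted p = 0.0549) and ranged from 0.74 to 1.17 with 1 array left out, the call failing without any of 8 of the 12 arrays. The same held for Rgs16 (1.99 ± 0.64, adjusted p = 0.0482), with 1.71 to 2.32, and Serpina4-ps1, a serpin pseudogene, had 2.81 ± 0.87 (adjusted p = 0.0393), with 2.51 to 3.21 and a call that failed without any of 6 arrays.

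Endoplasmic reticulum chaperones differed in their fasting effect between the diets. Of 24 measured genes 2 rose and none fell on HFD (2.76% of all genes rose), and 15 fell on CTRL diet (3.43% of all genes fell there). A positive interaction was called for 14 (1.11% of all genes), with none negative. The medians were 0.12 on HFD and -0.81 on CTRL diet. Hspa5, the chaperone BiP, was 14.98, 15.28 and 16.47 in fed and 15.04, 15.74 and 16.05 in fasted livers on HFD (0.15 ± 0.24, adjusted p = 0.706) and fell by 1.06 on CTRL diet (interaction 1.21 ± 0.33, adjusted p = 0.0158). Sdf2l1, an inducible component of the chaperone complex, had 0.49 on HFD and fell by 2.16 on CTRL diet (2.64 ± 0.53, adjusted p = 0.000938). Derl3, a gene of endoplasmic reticulum-associated degradation, rose on HFD by 1.72 ± 0.53 (adjusted p = 0.0129) and fell on CTRL diet by 1.69 (3.41 ± 0.72, adjusted p = 0.00151). Its rise on HFD was 2.57 in the first washing batch and 0.04 in the second, and the call was lost without fed replicate 2 (1.42 to 2.23 with 1 array left out).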

How the data were processed

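Total liver RNA (200 ng per mouse, Cy3) was hybridised to 1-colour Agilent arrays and scanned, with spots read by Agilent Feature Extraction 10.10.1.1 according to the submitters' processing notes, which also name limma. The authors deposited each array's spot intensity, from which the results here start, and a log2 table of 32437 probes that the authors had filtered, corrected for washing bath and quantile normalised, used here as an alternative. From the deposited median intensity of 59305 non-control spots of 62976, outlier spots were removed (95 to 143 on each of the 12 arrays of p110α hep-/- livers on HFD), spots of a probe were averaged, and probes were kept that 5 or all 6 arrays of some group measured well above background (30793 of 56605 probes, 20486 genes). Of the kept probes 30762 are also in the deposited table. Values were log2 transformed, corrected for washing batch with the group means protected, and quantile normalised. All 48 arrays were fitted in limma 3.58.1 (R 4.3.3, with statmod 1.5.0 installed) with 8 group means and array weights. Fold changes therefore differ from differences of plain means. The Benjamini-Hochberg adjustment ran over all kept probes, and the brightest probe stood for its gene. Interactions are differences between 2 fasting effects in the same fit.

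Labels give only a replicate number for each array. That 1 array is 1 mouse was taken from the study's account of 6 mice per group, and the number of arrays limits the precision. Symbols are those of the array, of which 14103 were matched to RefSeq by accession and 660 updated. The members and gene lists were chosen with earlier results of these data known. Named genes were the 12 largest called rises and 12 largest falls with a gene symbol, signals above background and no overlap between groups, and the 3 largest bounds in each direction. The 6 largest called interactions in each direction were also taken, again with signals above background in fasted and fed livers, with list genes beside them. Some of these genes are not reported here. Alternatives were another background correction, scaling, filter, block, probe rule and threshold, and leaving out each of the 12 arrays. The scripts were tested on simulated data.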

Additional observations from a re-analysis of the deposited data

Results flagged for a closer look

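In 24 of 240 tests of a gene in a group of 6, the highest or lowest liver stood apart from the other 5 by Dixon's criterion at the 95% level, which chance meets in about 1 of 20 groups. Of these, 10 concerned fed replicate 3, the array of low weight. It was the lowest fed liver for Tmie (8.36), Gpd1 (14.24), Pygl (14.57), Ankrd2 (6.7) and Elovl3 (11.46), and the highest for Scd1 (15.72), Fgf21 (8.89), Npm1 (12.75), Hamp (14.86) and Hamp2 (13.28). Other fed livers that stood apart were replicate 6 for Slc41a2 (12.35), Tsc22d3 (13.19) and Sdf2l1 (12.27), replicate 5 for Msmp (5.11) and replicate 4 for Slc2a4 (6.66). Among fasted livers these were replicate 1 for Fkbp5 (13.04) and Angptl4 (15.84), replicate 3 for Khk (16.17), Derl3 (8.64), Map1lc3b (14.31) and Hnf4a (16.27), replicate 4 for Hamp (16.06) and replicate 6 for Ppp1r3b (14.84) and Per1 (12.04). Hamp encodes hepcidin, the hormone of iron balance. It ran from 4.88 to 14.86 in fed livers, with a median of 6.32, and from 4.89 to 16.06 in fasted ones, with a median of 5.54. In p110α hep-/- livers on CTRL diet its means, not medians, were 15.7 ± 0.6 and 15.73 ± 0.68 (SD, n = 6 each).

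The fasting effect differed from that of p110α hep+/+ livers on HFD by limma's interaction test for 23 of the 120 genes followed by name. Positive differences in log2 fold change were 3.48 for Rgs16, 1.34 for Elovl6, 1.84 for Fasn, 1.93 for Acly, 1.30 for Acaca, 1.23 for Gpam, 3.58 for Pnpla3, 1.57 for Fgf21, 2.45 for Ppp1r3g, 1.78 for Dusp1, 2.89 for Slc2a4, 1.80 for Gprc5b and 1.88 for Cux2. Pnpla3, a lipid droplet acyltransferase and lipase, was not well above background in any fasted p110α hep-/- liver on HFD, and Cux2 was so in 1 of the 6 fed ones. The differences of both genes therefore rest on signals near background and are no measured sizes. Negative differences were -1.64 for Car3, -0.95 for Sucnr1, -1.54 for Slc41a2, -0.93 for Crot, -0.62 for Gpd1, -0.60 for Acta2, -1.72 for Slc22a7, -1.50 for Gbp11, -1.46 for Nat8 and -1.39 for Ankrd2. With 1 array left out the difference for Gpd1 ran from -0.70 to -0.54 and lost its call without fasted replicate 2 or fed replicate 2 or 4, and that for Acta2 ran from -0.65 to -0.47 and lost it without fasted replicate 6 or fed replicate 1 or 2.

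Between HFD and CTRL diet in p110α hep-/- livers the same test separated 34 of these 120 genes. The value for Pnpla3 carries the same limit. Positive differences were 1.99 for Rgs16, 1.43 for Fasn, 1.24 for Mid1ip1, 0.95 for Srebf1, 0.61 for Acaca, 1.75 for Pnpla3, 2.52 for Slc2a4, 3.42 for Cyp2c70, 3.41 for Derl3, 2.81 for Serpina4-ps1, 2.64 for Sdf2l1, 1.21 for Hspa5 and 1.00 for Cyp27a1. Without fed replicate 3 the calls of Srebf1 (0.93), Acaca (0.58) and Rgs16 (1.84) were lost. The call of Mid1ip1 was lost without fed replicate 4 or 5 (1.02 to 1.43 with 1 array left out), that of Acaca also without fasted replicates 1, 2 or 3 or fed replicate 4 (0.55 to 0.68), and that of Ppargc1a without fasted replicate 4 or 6 or fed replicate 4 or 5 (-0.82 to -0.63). Negative differences among oxidation and ketone body genes were -0.82 for Cpt1a, -1.06 for Hadha, -1.57 for Slc22a5, -0.77 for Acadm, -1.10 for Bdh1, -2.0 for Ehhadh and -1.36 for Crot. Among other PPARα targets they were -2.30 for Fgf21, -2.88 for Pdk4, -1.76 for Acot1, -2.16 for Cyp4a10, -2.70 for Cyp4a14, -3.52 for Cidec, -2.76 for Acot2 and -2.55 for G0s2. The remaining ones were -1.34 for G6pc, -1.02 for Gpd1, -0.71 for Ppargc1a, -1.18 for Txnip, -1.24 for Ankrd2 and -3.66 for Lamb3.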

How the results depend on the processing

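The number of genes called for fasting was 1209. It stayed within 1.5 times of that under all alternatives but 3, namely the processed signal scaled to the 75th percentile (1837), the adjusted p with no fold threshold (5843) and a fold change above 2 (291). The deposited log2 values gave 1207, normexp 1033, the median over probes 1064, and leaving out 1 array 1067 to 1300. The 280 genes of the genotype interaction became 183 with no filter on dim probes, 168 with no array weights, 690 with no fold threshold and 65 with a fold change above 2, and 182 (without fed replicate 2) to 334 (without fed replicate 3) with 1 array left out. Within the first and second washing batch, with 3 livers per group, it called 44 and 67 genes. All 280 had the same direction in both batches, but they were called on both batches together, so this is no independent check. The 591 genes of the diet interaction became 198 within the second batch, 1618 with no fold threshold and 198 with a fold change above 2, and 499 to 655 with 1 array left out. All 591 had the same direction in both batches, with the same limit. Over the 30 pathway lists 134 genes were called, and 94 to 149 under the alternatives. The genotype interaction of Acta2 turned from -0.60 to 0.16 (adjusted p = 0.839) under the median over probes, and the cause was not tested.

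Of 95 called genes named here, 83 kept their call under all processing alternatives and 85 under every left-out array. Of 57 called interactions, 44 and 47 did. Within each of the washing batches, with 3 livers per group, 49 of the 95 and 14 of the 57 kept their call in both. Replicate numbers did not pair the livers. The correlations of same-numbered deviations ran from -0.12 to 0.08, no liver correlated best with its own number, and a replicate block gave 1243, 268 and 619 called genes for the fasting effect, the genotype interaction and the diet interaction.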

Other observations

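Hamp2, a second hepcidin gene, ran from 6.97 to 13.28 in fed and from 5.64 to 12.22 in fasted p110α hep-/- livers on HFD and was not called (-0.14 ± 0.92, adjusted p = 0.939), while it fell in p110α hep+/+ livers on HFD (-2.57, adjusted p = 0.0124) and in p110α hep-/- livers on CTRL diet (-3.13, adjusted p = 0.00285). The differences between these effects did not pass the interaction tests (adjusted p = 0.309 and 0.145). Trib1, a pseudokinase that limits lipogenesis, was 10.83 to 11.37 in fed and 11.54 to 12.39 in fasted livers, with no overlap (0.77 ± 0.14, adjusted p = 2.9e-05). Cebpb, a transcription factor of gluconeogenic and stress genes, was 13.02 to 13.72 in fed and 13.91 to 14.53 in fasted livers, also with no overlap (0.95 ± 0.18, adjusted p = 6.58e-05). Of 422 called genes with several probes, 250 had every other probe in the same direction within the adjusted p threshold, and 13 had a probe past it in the opposite direction.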
